A study of Mus musculus with 6 samples.

Results

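The type I interferon stimulated genes were followed in RNA-seq of inguinal lymph nodes from mice with experimental autoimmune encephalomyelitis (EAE), an induced model of multiple sclerosis. They were chosen by name as 50 genes: the interferon receptor chains, the transcription factors of the pathway, and sensors, antiviral effectors, ubiquitin-like modifiers and schlafen genes that interferon is known to induce. Of these, 49 were found by symbol among 23307 genes in the table, and Mx2 was not analysed here. The comparison had 3 SJL mice treated therapeutically with perampanel, an antiepileptic AMPA receptor antagonist, and 3 control SJL mice with EAE that are labelled only as controls. All nodes were taken at day 3 after induction, in all groups from the same strain, and pressed through a strainer before RNA was purified. The labels give neither the age nor the sex of the mice, nor what the control mice were given in place of the drug.

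Type I interferons bind a receptor of the chains IFNAR1 and IFNAR2, whose kinases JAK1 and TYK2 phosphorylate transcription factors such as STAT2. Together with IRF9, STAT2 enters the nucleus in a complex that binds the interferon-stimulated response element (ISRE) in target promoters. In lymph nodes the pathway is known for its antiviral genes, for raising antigen presentation and for setting the activation of lymphocytes, and interferon beta is an established drug in multiple sclerosis.

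The ISRE is the feature by which the pathway reaches its targets, so the reference promoters were read for its core. RefSeq promoters of GRCm38.p6, from 250 bases before to 50 bases after a gene's start, were found for 39 of the 50 genes. The core, spelled GAAA, NN and GAAA without gaps and searched on both strands, was present in a promoter of 20 of these 39 (51.3%), against 1079 of 27025 genes (3.99%). The related element GAS, written TTCNNNGAA, was present for 10 of the 39 (25.6%), against 2582 of 27025 genes (9.55%). These are matches of letters in the reference strain and not measured binding sites, and SJL sequence can differ. Shown here are 6 promoters of genes on which the values below turn, in 5′ to 3′ direction along the gene. ISRE cores are in capitals. The Isg15 capitals cover 3 overlapping cores and Ifit1 has 2 cores. Trim30a and Ifi203 have 1 each in the promoter shown, and Slfn1 and Dtx3l have none in this window. Trim30a and Ifi203 each have 2 promoters in the reference. The Ifi203 promoter not shown, chr1:173942623-173942922, has 0 cores, and the Trim30a promoter not shown has 1.
Isg15, chr4:156200769-156201068, minus strand: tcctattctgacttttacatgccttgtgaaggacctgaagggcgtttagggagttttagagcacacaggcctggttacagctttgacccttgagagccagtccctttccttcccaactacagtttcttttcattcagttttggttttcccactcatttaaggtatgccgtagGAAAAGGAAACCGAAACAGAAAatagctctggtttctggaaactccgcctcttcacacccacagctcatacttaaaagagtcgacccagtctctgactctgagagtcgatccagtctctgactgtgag
Ifit1, chr19:34640639-34640938, plus strand: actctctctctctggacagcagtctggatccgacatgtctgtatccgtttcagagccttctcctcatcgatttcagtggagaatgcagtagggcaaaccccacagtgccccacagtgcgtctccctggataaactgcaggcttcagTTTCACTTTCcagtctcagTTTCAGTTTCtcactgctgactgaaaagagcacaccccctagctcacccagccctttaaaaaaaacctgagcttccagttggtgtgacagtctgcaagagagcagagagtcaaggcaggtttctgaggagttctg
Trim30a, chr7:104465144-104465443, minus strand: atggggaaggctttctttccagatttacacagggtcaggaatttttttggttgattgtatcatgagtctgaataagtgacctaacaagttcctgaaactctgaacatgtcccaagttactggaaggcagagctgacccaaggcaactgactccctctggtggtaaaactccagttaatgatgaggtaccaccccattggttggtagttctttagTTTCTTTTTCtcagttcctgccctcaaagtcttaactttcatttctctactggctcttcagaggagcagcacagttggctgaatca
Ifi203, chr1:173942443-173942742, minus strand: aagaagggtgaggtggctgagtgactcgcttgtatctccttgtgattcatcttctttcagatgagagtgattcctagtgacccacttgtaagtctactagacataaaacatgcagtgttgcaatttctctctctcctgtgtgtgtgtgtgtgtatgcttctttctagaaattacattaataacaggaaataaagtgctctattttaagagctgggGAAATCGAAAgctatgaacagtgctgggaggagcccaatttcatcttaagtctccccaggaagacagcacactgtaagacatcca
Slfn1, chr11:83116570-83116869, plus strand: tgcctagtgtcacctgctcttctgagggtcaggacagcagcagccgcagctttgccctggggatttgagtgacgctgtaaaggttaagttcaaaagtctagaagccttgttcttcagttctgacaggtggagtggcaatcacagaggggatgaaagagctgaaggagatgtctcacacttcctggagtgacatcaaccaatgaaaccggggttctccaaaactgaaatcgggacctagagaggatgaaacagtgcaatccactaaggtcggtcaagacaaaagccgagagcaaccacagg
Dtx3l, chr16:35938978-35939277, minus strand: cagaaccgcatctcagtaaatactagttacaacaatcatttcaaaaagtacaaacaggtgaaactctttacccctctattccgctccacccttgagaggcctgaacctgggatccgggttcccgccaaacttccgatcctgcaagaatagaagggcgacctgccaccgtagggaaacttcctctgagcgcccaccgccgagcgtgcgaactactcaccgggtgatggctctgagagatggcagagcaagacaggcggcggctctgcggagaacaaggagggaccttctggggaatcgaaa

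The libraries held 1779724 to 2003726 gene reads in perampanel nodes and 2036072 to 2208589 in control nodes, so every perampanel library was shallower than every control library. Values are the authors' normalized counts, gene reads divided by 1 size factor per library, in which 1 read is worth about 1 normalized count. Mitochondrial genes took 10.3 to 10.8% of the counts in perampanel nodes and 9.84 to 10.3% in control nodes. T cell markers dominated, with 8 of 8 tested and a summed level of 12536 to 12992 normalized counts in perampanel nodes and 11574 to 12510 in control nodes, and the labelled cell type is lymphocytes. The sum was higher in every perampanel library than in every control library, by a narrow margin, at 12536 in perampanel 3 against 12510 in control 3. Its largest part is Trac, given next, with a mean of 4940 over the 6 libraries. Apart from Trac and Cd8a, the log2 fold changes went both ways. They were 0.12 for Cd4, 0.09 for Cd3g, 0.05 for Lat, 0.005 for Cd3e, -0.03 for Cd3d and -0.14 for Cd8b1. The T cell receptor gene Trac rose to 5247, 5176 and 5196 normalized counts in perampanel nodes, against 4455, 4640 and 4924 in control nodes (log2 fold change 0.16 ± 0.04, SE; limma adjusted p = 0.0304). Its groups do not overlap, and the call was lost with quantile normalization, with DESeq2 and without control 1, control 2, perampanel 1 or perampanel 3 (adjusted p 0.0590 to 0.313). The CD8 chain gene Cd8a had 138, 150 and 142 normalized counts in perampanel nodes, against 192, 172 and 187 in control nodes. All perampanel libraries were below the control libraries there, at a log2 fold change of -0.36 ± 0.11 (SE; limma adjusted p = 0.130). The part of these cells in the values of the interferon stimulated genes was not tested. Each library comes from 1 bulk suspension, in which fewer cells of a type and less RNA per cell cannot be told apart.

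None of the 40 tested members passed the test between perampanel and control nodes. With limma, on log2(normalized count + 1) and with Benjamini-Hochberg adjustment over the 9076 genes that averaged 10 or more normalized counts, 0 of the 40 tested members had an adjusted p under 0.05, against 1.1% of all tested genes (0.419% higher and 0.683% lower). The smallest adjusted p of a member was 0.0700, for Trim30a, and edgeR on the recovered reads also gave 0 calls, against 1.19% of all tested genes, with a smallest adjusted p of 0.0632. Without the filter on low values, 1 member passed, Trim30a, with a limma adjusted p of 0.0306. DESeq2 gave 0 calls among the 17 members to which it assigned an adjusted p. At an unadjusted p under 0.05 there were 11 members by limma, all of them higher in perampanel nodes, against 9.33% of all tested genes in either direction, 4.36% higher and 4.97% lower. The limma count was 6 without perampanel 3, 6 without control 2 and 5 without control 3. By edgeR there were also 11, against 9.29% of all tested genes. In the authors' deposited table, 17 members had an adjusted p, of which 0 were under 0.05, and the smallest was 0.125.

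The log2 fold changes, perampanel over control, were small and mostly above 0. Of the 40 tested members, 33 had a positive value and 7 a negative one (82.5% positive, against 50.3% of all tested genes). Their median was 0.17, against 0.00144 over all tested genes, and they ran between -0.41 for Isg15 and 0.84 for Cmpk2. The 3 perampanel libraries lay above all 3 control libraries for 9 members (22.5%, against 7.18% of all tested genes) and below them for 0 (against 6.9%). The 95% interval reached 0 for 29 of the 40 members, and its upper end stayed under 0.5 for 24 and reached 1 for 5. Members share 1 set of 6 libraries, so these counts describe those libraries.

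**Figure D1:**
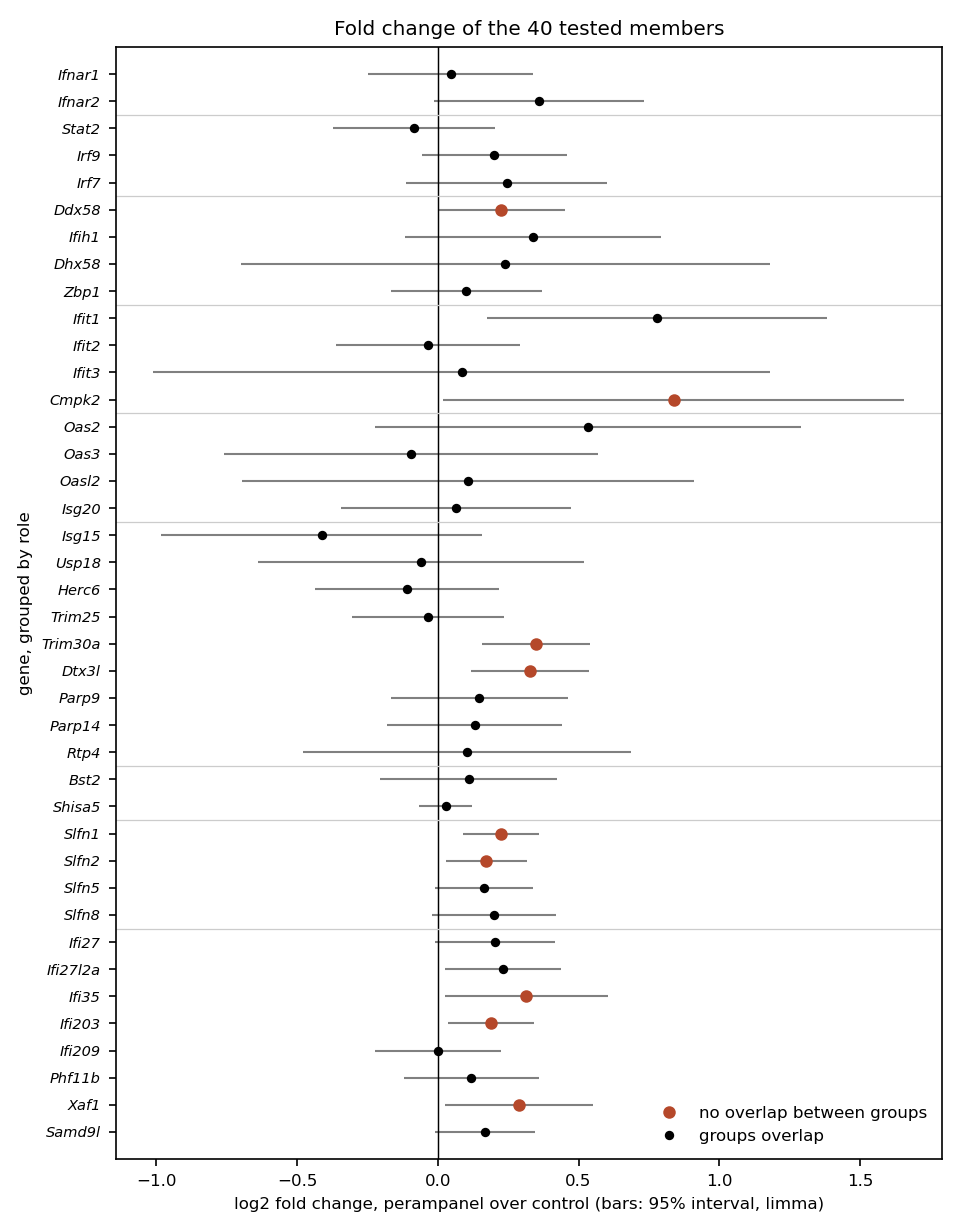
Log2 fold change, perampanel over control, of the 40 tested members in order of their role, with bars for the 95% interval from limma; red points mark the 9 members whose perampanel libraries all lie above the control libraries. Most points lie right of 0, and 29 of the 40 bars reach 0.

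Among the receptor chains, Ifnar1, which carries TYK2, had 93.8, 151 and 114 normalized counts in perampanel 1 to 3, against 109, 118 and 115 in control 1 to 3. The perampanel values surround the control values, and the log2 fold change was 0.05 ± 0.14 (SE; 95% interval -0.25 to 0.34). Ifnar2, the chain that carries JAK1, had 81.6, 57.5 and 53.8 normalized counts in perampanel nodes and 54.1, 46.6 and 46.8 in control nodes. The groups overlap by a single pair of libraries, perampanel 3 and control 1, and the log2 fold change of 0.36 ± 0.18 (SE) had an interval of -0.01 to 0.73.

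The transcription factors overlapped between the groups as well. Stat2 had 76.5, 97.8 and 90.4 normalized counts in perampanel nodes against 92.5, 96.8 and 90.0 in control nodes. Irf9, its DNA-binding partner, had 208, 177 and 244 normalized counts in perampanel nodes against 223, 156 and 170 in control nodes. Irf7, the factor that amplifies interferon production, had 60.2, 77.7 and 87.0 in perampanel nodes against 76.8, 53.0 and 59.7 in control nodes. In Irf9 and Irf7 perampanel 3 was the highest library and control 1 stood above the other control libraries. The log2 fold changes were -0.08 ± 0.14 for Stat2, 0.20 ± 0.13 for Irf9 and 0.24 ± 0.17 for Irf7 (SE), with limma adjusted p of 0.907, 0.668 and 0.713.

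Of the nucleic acid sensors, Ddx58, which encodes RIG-I, had 193, 202 and 206 normalized counts in perampanel nodes, against 191, 178 and 147 in control nodes. The groups do not overlap, but perampanel 1 and control 1 are nearly level, and the log2 fold change was 0.23 ± 0.11 (SE; limma adjusted p = 0.535). Ifih1, which encodes MDA5, had 33.7, 43.4 and 44.6 normalized counts in perampanel nodes against 28.5, 27.4 and 40.4 in control nodes, with overlap. Zbp1, a sensor of nucleic acids in the Z form, ranged over 105 to 126 in perampanel nodes and 101 to 122 in control nodes. Dhx58, the third RIG-I-like receptor, ranged over 11.2 to 14.1 in perampanel nodes and 3.67 to 22.6 in control nodes, so that the control libraries alone spanned the whole of its variation.

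The IFIT and OAS families, classical antiviral effectors that bind viral RNA or make the activator of RNase L, held several low genes that differed widely between single mice. Ifit1 had 32.6, 28.2 and 72.1 normalized counts in perampanel nodes against 32.5, 24.7 and 15.6 in control nodes. Perampanel 3 stood far above the other 5 libraries, and the log2 fold change of 0.78 ± 0.29 (SE; limma adjusted p = 0.322) was 0.37 without that library and 0.50 without control 3. Oas2 had 10.2, 17.1 and 28.6 normalized counts in perampanel nodes, spread widely, against 11.8, 11.9 and 11 in control nodes, which lay close together. Ifit3 ranged over 4.08 to 22.9 in perampanel nodes and 4.57 to 15.6 in control nodes, again with perampanel 3 the highest. Of the 50-base stretches of Ifit3, 51.2% also occur in other annotated genes, chiefly its near copy Ifit3b, so reads of that pair may have been split or lost in counting.

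Cmpk2, a mitochondrial nucleotide kinase gene that lies beside Rsad2, had its high library elsewhere. It had 20.4, 15.1 and 10.3 normalized counts in perampanel nodes against 7.87, 8.22 and 7.35 in control nodes. The groups do not overlap, and here perampanel 1 is the highest library and perampanel 3 the lowest of its group. The log2 fold change was 0.84 ± 0.40 (SE; 95% interval 0.02 to 1.66), at 44 reads in all perampanel libraries and 25 in all control libraries. Ifit2, Oas3, Oasl2 and Isg20, an exonuclease gene, had log2 fold changes between -0.10 and 0.11 and overlapping groups.

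The ISG15 cycle and the ubiquitin ligases held the smallest adjusted p of the members, that of Trim30a, and 4 of the 7 negative log2 fold changes. Trim30a, whose product dampens Toll-like receptor signalling in mouse cells, lies at chr7:104409025-104465193 on the minus strand and had 278, 276 and 321 normalized counts in perampanel nodes, against 213, 238 and 235 in control nodes. Its groups stand clearly apart, with a log2 fold change of 0.35 ± 0.09 (SE; 95% interval 0.16 to 0.54). Dtx3l, a ubiquitin ligase that works as a complex with PARP9, had 208, 210 and 240 normalized counts in perampanel nodes, against 167, 183 and 173 in control nodes. Its groups also do not overlap, and its log2 fold change was 0.33 ± 0.10 (SE; limma adjusted p = 0.144). The partner gene Parp9 had 83.6, 105 and 118 in perampanel nodes against 103, 98.6 and 74.4 in control nodes, and Parp14, their neighbour on chromosome 16, had 112, 108 and 82.4 in perampanel nodes against 88.6, 77.6 and 110 in control nodes; both overlapped. The exons of Dtx3l and Parp9 overlap each other, and the library kit does not mark strand, so reads from the shared stretch cannot be assigned to either.

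Isg15, the ubiquitin-like modifier for which the cycle is named, had the lowest log2 fold change of the 40 members. It had 16.3, 22.2 and 42.4 normalized counts in perampanel nodes, against 34.4, 28.3 and 38.6 in control nodes. Perampanel 3 was the highest of all 6 libraries and the other 2 perampanel libraries were the lowest, and the log2 fold change was -0.41 ± 0.28 (SE; 95% interval -0.98 to 0.16). Usp18, which removes ISG15 from proteins and restrains the receptor, also had its highest value in perampanel 3 and its lowest in perampanel 1, at 17.3, 28.2 and 46.9 in perampanel nodes against 23.6, 32.0 and 34.9 in control nodes. So did Rtp4, a receptor transporter gene, at 25.5, 46.4 and 92.7 in perampanel nodes against 59.1, 42.9 and 34.9 in control nodes. Herc6, the main ISG15 ligase in mouse, had 59.1, 86.7 and 74.4 normalized counts in perampanel nodes against 72.8, 76.7 and 86.3 in control nodes, and a log2 fold change of -0.11 ± 0.16 (SE). Trim25, a ligase that acts on RIG-I, had a log2 fold change of -0.03 ± 0.13.

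**Figure D2:**
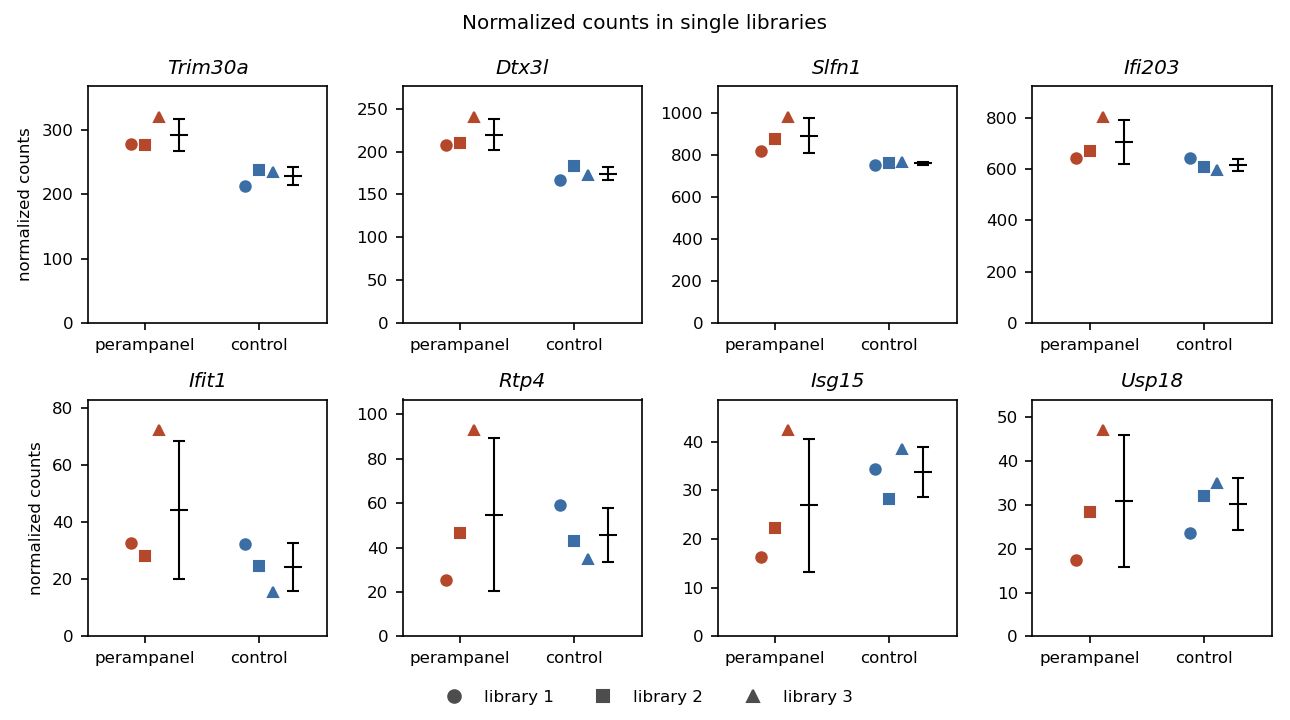
Normalized counts of 8 members in each library, with the mean and SD of each group (n = 3 each); the vertical axis starts at 0 in each panel. Trim30a, Dtx3l, Slfn1 and Ifi203 have no overlap between groups, while Ifit1, Rtp4, Isg15 and Usp18 have their highest value in perampanel 3 and an overlap.

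The schlafens, a family known for restraining lymphocyte growth and viral translation, were abundant and all 4 had positive values. They lie together on chromosome 11, with Slfn1 at chr11:83116849-83122670. Slfn1 had 818, 875 and 982 normalized counts in perampanel nodes, against 753, 763 and 766 in control nodes. The control libraries are within a narrow band that all perampanel libraries exceed, and the log2 fold change was 0.22 ± 0.07 (SE; limma adjusted p = 0.103). Slfn2, which keeps T cells quiescent in mouse, had 625, 581 and 628 normalized counts in perampanel nodes against 510, 540 and 579 in control nodes. The gap there between perampanel 2 and control 3 is slight, and the log2 fold change was 0.17 ± 0.07 (SE; limma adjusted p = 0.391). Slfn5, at 384, 349 and 427 in perampanel nodes against 354, 346 and 332 in control nodes, and Slfn8, at 213, 214 and 277 in perampanel nodes against 216, 197 and 196 in control nodes, both overlapped and had perampanel 3 highest.

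The remaining induced genes had 8 tested members, all with a log2 fold change above 0, although Ifi209 was below 0 with TMM scaling, quantile normalization, edgeR and DESeq2. Ifi203, of the PYHIN family of DNA-binding proteins, had 645, 671 and 804 normalized counts in perampanel nodes, against 644, 609 and 598 in control nodes. Perampanel 1 and control 1 differ by less than 1 normalized count there, so the absence of overlap rests on that pair. The log2 fold change of Ifi203 was 0.19 ± 0.07 (SE; limma adjusted p = 0.362). Its exons share bases with Mndal, a further interferon stimulated gene on the same strand, so reads from there cannot be assigned to either. Ifi27l2a, a small mitochondrial membrane protein gene, had 371, 392 and 527 in perampanel nodes against 396, 334 and 358 in control nodes, with perampanel 3 apart from the rest. Ifi35 had 91.8, 89.8 and 101 normalized counts in perampanel nodes against 79.7, 74.9 and 71.6 in control nodes, and Xaf1, an antagonist of the apoptosis inhibitor XIAP, had 118, 107 and 125 in perampanel nodes against 92.5, 98.6 and 94.6 in control nodes. Neither overlapped, and their log2 fold changes were 0.31 ± 0.14 and 0.29 ± 0.13 (SE), with limma adjusted p of 0.464 and 0.466.

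Ifi27, Samd9l, Phf11b and Ifi209 overlapped. Ifi27 had 191, 236 and 214 normalized counts in perampanel nodes against 195, 180 and 180 in control nodes. Samd9l, an antiviral factor gene, had 418, 445 and 523 in perampanel nodes against 456, 383 and 393 in control nodes. Phf11b had 175, 153 and 167 in perampanel nodes against 130, 162 and 167 in control nodes. Their log2 fold changes were 0.20 ± 0.10, 0.17 ± 0.09 and 0.12 ± 0.12 (SE), and that of Ifi209 was 0.00. Of the stretches of Phf11b, 47.0% occur in another annotated gene, and of those of Ifi209 33.7%, so their counts may hold or miss reads of a copy. The membrane protein genes Bst2, which encodes tetherin, and Shisa5 had log2 fold changes of 0.11 ± 0.15 and 0.03 ± 0.05, and with quantile normalization Shisa5 was at -0.03.

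Per kilobase of exon, the levels of the members spanned a wide range, and the genes that vary most between mice were far from the most abundant. Ifi27l2a averaged 856 normalized counts per kilobase over the 6 libraries, Shisa5 789, Slfn1 443 and Slfn2 347. Isg15 averaged 40.2, Ifit1 12.9, Oas2 3.39, Rsad2 0.98 and Mx1 0.651 per kilobase. Shisa5 alone made up 28.9% of the summed counts of the 49 members. Without it the summed level was 6277, 6596 and 7546 normalized counts in perampanel nodes and 6134, 5875 and 5934 in control nodes, with each perampanel library above each control library.

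For most tested members the spread between single mice was larger in the perampanel group than in the control group. Perampanel 3 was the highest of the 6 libraries for 26 of the 40 tested members (65%, against 17.7% of all tested genes) and the lowest for 0. Perampanel 1 was the lowest library for 12 (30%, against 16.1%). Averaged over members, the log2 level relative to the mean of the 6 libraries was -0.12, 0.07 and 0.30 in perampanel 1 to 3, and -0.03, -0.11 and -0.12 in control 1 to 3. The groups overlap on that score, with perampanel 1 at the level of the lowest control libraries. Between perampanel 3 and perampanel 1 the ratio of normalized counts was 5.61 for Ifit3, 3.64 for Rtp4, 3.37 for Oasl2, 2.81 for Oas2, 2.71 for Usp18 and 2.60 for Isg15. Those of Ifit3, Oasl2 and Oas2 rest on few reads, 31, 48 and 52 in all perampanel libraries. The median SD of a member on the log2 scale was 0.22 in perampanel nodes and 0.14 in control nodes, and it was larger in perampanel nodes for 28 of 40 members (70%, against 52.8% of all tested genes). For the 21 members that averaged under 100 normalized counts the medians were close, at 0.29 in perampanel nodes and 0.26 in control nodes. The SD was still larger in perampanel nodes for 15 of these 21 (71.4%, against 53.2% of all tested genes at that level). For the 19 at or above that level the medians were 0.13 in perampanel nodes and 0.09 in control nodes. There the SD was larger in perampanel nodes for 13 (68.4%, against 52.3%).

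**Figure D3:**
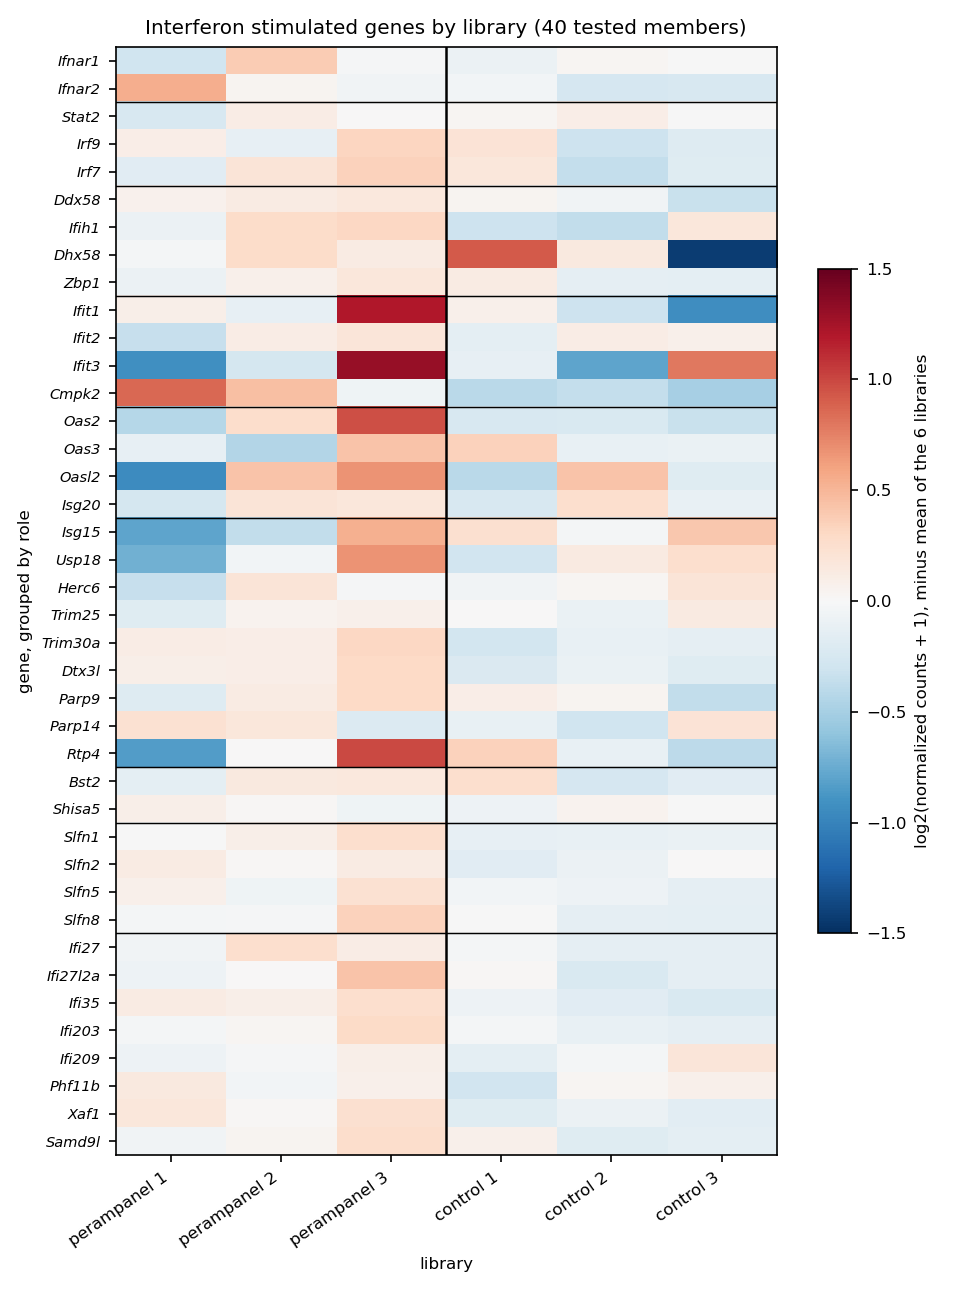
Log2(normalized count + 1) of the 40 tested members in each library, minus the gene's mean over the 6 libraries, in order of role. Perampanel 3 holds the highest value for 26 of the 40 members, with Ifit1, Ifit3, Oas2 and Rtp4 the darkest there.

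The overlap between groups and the place of perampanel 1 differed with the level of the gene, in a division chosen after the values were seen. Perampanel 3 was the highest library for most members at both levels. These were 13 of the 19 that averaged 100 or more (68.4%, against 18.3% of all tested genes at that level). Below it they were 13 of the 21 (61.9%, against 17.4%). Among the 19 members that averaged 100 or more normalized counts, 18 had a positive log2 fold change, with a median of 0.19 (94.7% positive, against 53.2% of all tested genes at that level). In 7 of them all perampanel libraries lay above the control libraries (36.8%, against 9.22%), and in 0 below (against 7.36%). Their score was 0.00, 0.05 and 0.20 in perampanel 1 to 3 and -0.06, -0.10 and -0.09 in control 1 to 3, so that the groups did not overlap. Among the 21 members below that level, 15 had a positive value, with a median of 0.11 (71.4% positive, against 48.6% of all tested genes at that level). In 2 of them all perampanel libraries lay above the control libraries (9.52%, against 6.03%). Their score was -0.23, 0.09 and 0.39 in perampanel nodes and 0.00, -0.11 and -0.15 in control nodes, and perampanel 1 was lowest for 10 of the 21.

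The values of the list depended on which perampanel library was left out. Without perampanel 3 the median log2 fold change of the 40 members was 0.08 and 28 were positive, and 6 had an unadjusted p under 0.05. Without perampanel 1 the median was 0.25 and 37 were positive, and Slfn1 passed the test with a log2 fold change of 0.29 and a limma adjusted p of 0.0310. Perampanel 3 was also the shallowest library, and its red cell markers summed to 38.9 normalized counts, against 8.07 and 15.3 in the other perampanel libraries and 6.39 to 14.8 in control nodes. Pecam1, a gene of endothelium and of leukocytes, had 242 normalized counts there, against 200 and 199 in the other perampanel libraries and 176 to 202 in control nodes. The other 6 stromal and endothelial markers averaged under 3, with Ccl19 and Ccl21a at 0 in all libraries. The part of depth and of these cells in the pattern was not tested.

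The interferon-inducible GTPases and the genes of MHC class I presentation, which answer to interferon gamma as well as to type I interferon, were highest in another mouse. Perampanel 2 was the highest library for 12 of 17 tested GTPase genes (70.6%) and 17 of 23 tested MHC class I genes (73.9%), against 4 of the 40 interferon stimulated genes (10%). Perampanel 3 was highest for 3 of the GTPase genes and 1 of the MHC class I genes. The 49 further interferon stimulated genes, given below, did not share the peak of the members in perampanel 3. Perampanel 2 was highest for 18 of them (36.7%, against 17.7% of all tested genes). Perampanel 3 was highest for 10 of them (20.4%, against 17.7%). The score of the GTPases was -0.13, 0.40 and 0.07 in perampanel 1 to 3 and -0.11, -0.03 and -0.21 in control 1 to 3. The median log2 fold change, perampanel over control, was 0.26 for the GTPases and 0.10 for the MHC class I genes, with 0 calls by limma in either list, against 1.1% of all tested genes. At an unadjusted p under 0.05 there were 10 of the 17 GTPases, all higher, and 7 of the 23 MHC class I genes, 5 higher and 2 lower, against 9.33% of all tested genes. Of these, edgeR called 1 GTPase gene, Gbp2 (adjusted p = 0.0305). The difference between the lists was not tested, since each rests on the same 6 libraries.

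**Figure D4:**
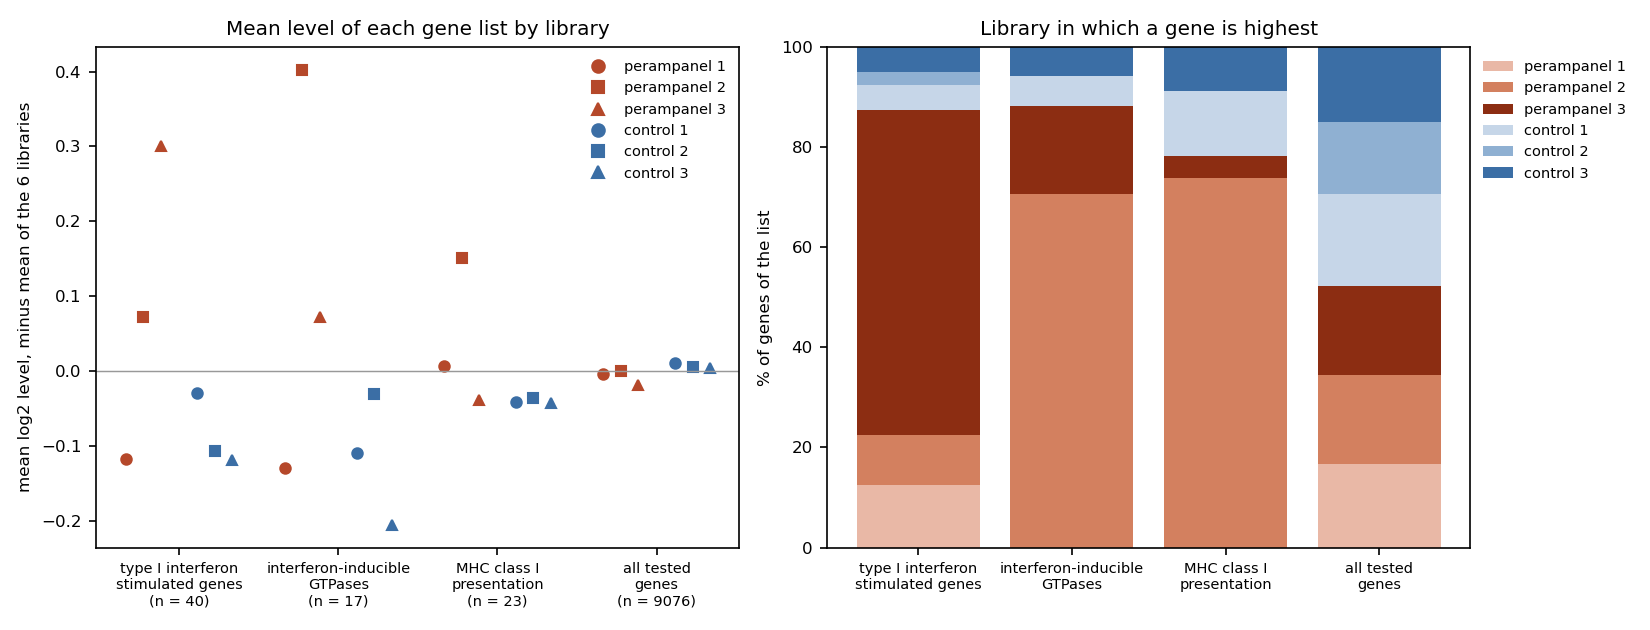
Left, mean log2 level of each gene list in each library, minus the mean of the 6 libraries; right, percent of the genes of each list that have their highest value in each library. The type I interferon stimulated genes peak in perampanel 3 for 65% of members, the GTPases and MHC class I genes in perampanel 2 for 70.6% and 73.9%.

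Other genes of the pathway were read from lists fixed for it. Of 21 tested genes of signalling and interferon induction, 0 were called by limma, against 1.1% of all tested genes, and edgeR also called 0. At an unadjusted p under 0.05 there were 4, all higher in perampanel nodes, against 4.36% of all tested genes. Jak1, the kinase gene of the IFNAR2 chain, had 1464, 1522 and 1521 normalized counts in perampanel nodes against 1252, 1424 and 1414 in control nodes, without overlap, and a log2 fold change of 0.14 ± 0.05 (SE; limma adjusted p = 0.324). Socs1, the feedback inhibitor of these kinases, had 98.9, 111 and 103 in perampanel nodes against 78.7, 84.9 and 70.7 in control nodes. All 3 perampanel libraries were above the control libraries, at a log2 fold change of 0.41 ± 0.14 (SE; limma adjusted p = 0.211). Tyk2 had a log2 fold change of -0.03 ± 0.21. Of the interferons themselves, Ifnb1 had 0 reads in every library, which allows at most 3 reads, or 1.36 to 1.69 CPM, in a library, by counting error only.

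Of 49 further interferon stimulated genes tested, limma called 1 as lower in perampanel nodes (against 0.683% of all tested genes) and 0 as higher (against 0.419%), and edgeR called 2. The gene called by both was Slfn9, a schlafen gene, with 7.14, 11.1 and 9.16 normalized counts in perampanel nodes and 24.6, 25.6 and 24.8 in control nodes. It fell in perampanel nodes, with a log2 fold change of -1.38 ± 0.33 and a limma adjusted p of 0.0309, at 26 reads in all perampanel libraries and 80 in all control libraries. Its call was lost with quantile normalization (limma adjusted p = 0.0521), and without any single control library or without perampanel 1 the adjusted p was 0.0702 to 0.157. The second edgeR call was Samhd1, which encodes an enzyme that depletes nucleotides, with 1544, 1688 and 1669 normalized counts in perampanel nodes and 1361, 1419 and 1481 in control nodes. Its groups do not overlap, and its log2 fold change was 0.20 ± 0.05 (SE; limma adjusted p = 0.0523, edgeR adjusted p = 0.0464). Among the 49 genes, 34 had a positive log2 fold change, with a median of 0.15, and perampanel 2 was highest for 18 and perampanel 3 for 10.

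The 9 members that were not tested averaged under 10 normalized counts. Eif2ak2, which encodes the RNA-activated kinase PKR, had 3.06, 4.03 and 6.87 normalized counts in perampanel nodes, against 11.8, 14.6 and 11 in control nodes. All perampanel libraries were below all control libraries there, at 13 reads in perampanel nodes and 40 in control nodes. In a fit without a filter on low values its log2 fold change was -1.30, with a limma adjusted p of 0.377. Mx1, a GTPase that blocks viruses, had 9 reads in all perampanel libraries and 5 in all control libraries. Rsad2, which encodes viperin, had 14 reads in perampanel nodes and 11 in control nodes, and Ifitm3, which blocks virus entry, had 11 in perampanel nodes and 15 in control nodes. Oas1a had 24 reads in perampanel nodes and 30 in control nodes. Ifi44, Ifit3b and Oasl1 had 13, 7 and 7 reads in perampanel nodes and 11, 9 and 4 in control nodes. Oas1g had 0 reads in every library. Of the 50-base stretches of Oas1a 57.6% occur in another annotated gene, and of those of Oas1g 45.7%, chiefly in each other. Reads of that pair may have been split or lost in counting. In Oasl1 all perampanel libraries lay above the control libraries, at its 7 and 4 reads. The other untested members with reads overlapped, and their adjusted p in the limma fit without a filter was 0.771 to 0.971.

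Markers of plasmacytoid and conventional dendritic cells, monocytes and macrophages, and B cells were far below those of T cells. Plasmacytoid dendritic cell markers summed to 327 to 367 normalized counts in perampanel nodes and 282 to 397 in control nodes, and their defining genes Siglech and Cox6a2 averaged under 3 and Klk1 was at 0; Bst2 is both one of these 9 markers and a member. Monocyte and macrophage markers, 10 in number, summed to 80.1 to 88.7 in perampanel nodes and 53.0 to 112 in control nodes, with Adgre1, Marco and Mertk at 0. Among them Ccr2, a chemokine receptor gene, had 4.08, 5.04 and 5.72 in perampanel nodes, against 32.5, 9.13 and 15.6 in control nodes. It was lower in every perampanel library, at a log2 fold change of -1.59 ± 0.46 (SE; limma adjusted p = 0.104, edgeR adjusted p = 0.0426). Ccr2 had 14 reads in all perampanel libraries and 60 in all control libraries. The other tested markers of that list, Ly6c2 and Cd68, went the other way with overlap, at 0.27 ± 0.21 and 0.46 ± 0.42 (SE). The 8 markers of conventional dendritic cells summed to 18.3 to 22.4 in perampanel nodes and 23 to 31.5 in control nodes, lower in every perampanel library. That sum rests on few reads, since 6 of the 8 averaged under 3, with Clec9a at 0. The only tested one, Clec10a, went the other way, at 14.3, 12.1 and 11.4 in perampanel nodes against 5.91, 9.13 and 11.9 in control nodes. Its groups overlapped, and its log2 fold change was 0.49 ± 0.41 (SE). B cell markers summed to 497 to 550 in perampanel nodes and 515 to 531 in control nodes. The part of these cells in the values of the interferon stimulated genes was not tested.

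The members were also read by whether any of their promoters holds an ISRE core. Of the 14 tested members with a core, 10 had their highest value in perampanel 3 and the median log2 fold change was 0.14. Of the 17 tested members with a promoter in the table but no core, 10 had it there and the median was 0.17. Isg15, Ifit1 and Trim30a, whose promoters are printed above, carry the core and had log2 fold changes of -0.41, 0.78 and 0.35. Slfn1 and Dtx3l, without a core in the window, had 0.22 and 0.33. The difference between members with and without a core was not tested.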

How the data were processed

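RNA from 6 inguinal lymph node suspensions, 3 from perampanel-treated and 3 from control mice, was sequenced after poly(A) selection with a kit that does not mark strand, per the labels' protocols. The labels name 3 mice per group, so each library was taken as 1 mouse. The authors deposited normalized counts, a signal of gene reads divided by 1 size factor per library, and their own comparison. That comparison holds a log2 fold change with its error, a test score, a p-value and an adjusted p-value, per the file headers; its direction was checked against the library columns (99.7% of genes have the sign of perampanel minus control). DESeq2, DESeq and the build GRCm38 appear in the submitters' processing notes, and neither the aligner nor the counter is given in the sources used here. Each non-zero value was a whole multiple of 1 read (100% within a tolerance of 1e-06), so reads could be recovered.

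The 9076 of 23307 genes that averaged 10 or more normalized counts entered limma 3.58.1 (trend) in R 4.3.3 on log2(value + 1), with no covariate and Benjamini-Hochberg adjustment over all of them; calls have an adjusted p under 0.05. Fold changes on that scale can understate or overstate the change of low genes. Limma and edgeR gave log2 fold changes of 0.84 and 0.97 for Cmpk2, -0.41 and -0.35 for Isg15, and 0.24 and -0.03 for Dhx58. Alternatives were pseudocounts of 0.1 and 10, no filter, a mean of at least 50, quantile and TMM scaling, edgeR 4.0.16 (quasi-likelihood) and DESeq2 1.42.0 on the recovered reads, the replicate number as a block, and each library left out. The fit was tested on simulated data. Full values are given for up to 25 tested members: Ifnar1, Ifnar2, Stat2, Irf9, Irf7, Isg15 and then the largest log2 fold changes at a mean of at least 20; Cmpk2, Oas2, Rtp4, Usp18 the other members, Samhd1, Gbp2, Trac, Cd8a, Ccr2 and Pecam1 were added after their values were seen. The members, lists and markers were chosen with earlier results of these data known; 1 gene of the signalling list is not reported here by name. Gene positions, exon lengths and overlaps come from GENCODE vM21 (GRCm38). There 15 of the 49 members share exon bases with another annotated gene, and reads from the shared bases cannot be assigned here. For Ifi203 and Mndal, which lie on the same strand, a kit that marks strand would not separate them either. Shared sequence was measured as the percent of a gene's 50-base stretches found in the transcripts of another gene.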

Additional observations from a re-analysis of the deposited data

How the results depend on the processing

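Over all 9076 tested genes, 100 were called; without a filter 179 were, with DESeq2 37, and with 1 library left out 43 to 116, the lowest without control 1. Members called numbered 0, and 1 without a filter (Trim30a, limma adjusted p = 0.0306); with 1 library left out they numbered 0 to 1 (Slfn1, without perampanel 1). The median log2 fold change of the members was 0.17 and ran from 0.08 to 0.25 with 1 library left out, and the median of all genes moved by less than 0.1 under every scaling tried. The positive members numbered 28 to 37 of 40 with 1 library left out, against 33, and 31 to 33 under the other settings that tested all 40. Members at an unadjusted p under 0.05 numbered 5 to 14 with 1 library left out, against 11. The difference of the member score, perampanel minus control, was 0.17 and ran from 0.06 to 0.27.

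With 1 library left out, the sign held for 26 of the 40 tested members and turned for 14: Ifnar1 (-0.14 to 0.21), Stat2 (-0.16 to 0.015), Herc6 (-0.24 to 0.034), Rtp4 (-0.36 to 0.55), Usp18 (-0.41 to 0.28), Dhx58 (-0.41 to 0.76), Ifit2 (-0.14 to 0.13), Ifit3 (-0.55 to 0.57), Oas3 (-0.33 to 0.10), Oasl2 (-0.20 to 0.61), Isg20 (-0.042 to 0.22), Trim25 (-0.092 to 0.048), Shisa5 (-0.010 to 0.068) and Ifi209 (-0.075 to 0.091). It also turned for Tyk2 (-0.20 to 0.15). Signs turned with edgeR and DESeq2 for Usp18 (0.00619 and 0.0171), Dhx58 (-0.0265 and -0.0370) and Ifi209 (-0.00900 and -0.00856), and with quantile normalization for Shisa5 (-0.0284) and Ifi209 (-0.0103, and -0.000290 with TMM). The settings for Samhd1, Trac, Ccr2 and the members outside the naming rule were chosen after the data were seen. The cause was not tested. DESeq2 gave Slfn9 and Ccr2 no adjusted p, and Samhd1 passed with limma without a filter (0.0341). With the replicate number as a block, 103 genes and 0 members were called, and Trac was not (limma adjusted p = 0.0686). The numbers do not pair the samples: deviations of same-numbered libraries correlated by 0.033, 0.033 and 0.016 over 9076 genes, and each library correlated best with its own number, a hint from the data and not from the design. Members under 50 normalized counts rest on few reads and their differences have wide intervals. The limma SE and interval draw each gene's variance toward a trend over all tested genes. For members that vary most between mice they are narrower than the spread of those mice alone would give. Rtp4 had an SD between single libraries, on the log2 scale, of 0.91 in perampanel nodes and 0.37 in control nodes. Its SE of 0.28 belongs to the difference between the group means, so the SDs and the SE are not like measures.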
